A study of Drosophila melanogaster with 12 samples.

Results

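The Hippo pathway was followed in Drosophila S2 cells through 10 genes of the count table, Tgi, yki, sd, hpo, wts, sav, mats, ex, Mer and kibra, taken by their FlyBase symbols out of 17494 genes. All 10 passed the filter on low counts, which left 7328 genes for testing. Tgi was chosen by its fitted slope of expression on the concentration of TMPyP4 in these same libraries, so its values are given as a description with no test. The other 9 were listed as components of its pathway with results of these data already known. They were tested in a fit over all 7328 genes.

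Hippo signalling is a growth-restraining kinase cascade first worked out in Drosophila. The kinase Hippo (hpo), with its scaffold Salvador (sav), phosphorylates the kinase Warts (wts) and its cofactor Mats (mats), and Warts in turn phosphorylates the coactivator Yorkie (yki), which is then kept out of the nucleus. The scaffolds Expanded (ex), Merlin (Mer) and Kibra (kibra) act at the cell cortex to start the cascade, and in fly tissues ex, Mer and kibra are also known as targets of Yorkie. In the nucleus Yorkie works through the DNA-binding TEAD protein Scalloped (sd), and Tgi, the fly relative of vertebrate VGLL4, binds Scalloped and Yorkie and holds target genes down.

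S2 cells are a line from late Drosophila embryos with features of phagocytic blood cells. They were grown for 48 hours with TMPyP4, a cationic porphyrin that binds G-quadruplexes, at 25, 50 or 100 µmol/L, or with its solvent DMSO, and each of the 4 groups had 3 libraries of poly(A) RNA. Nothing in the labels says that the replicates came from separate cultures or days, so p-values measure the spread between these libraries, which may be technical. The labels also state that the RNA was prepared mixed with zebrafish RNA, and the DMSO group carries a value in micrograms per litre that is not taken here as a dose.

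Gene counts per library ran from 4669194 to 9662038. Of 10 markers of S2 cells and hemocytes, 8 passed the count filter, with a summed level of 939 to 1585 CPM (the count relative to library size, scaled by TMM) over the 9 TMPyP4 libraries, against 1963 to 2242 CPM in the DMSO libraries. Of the 10, NimC1 and gcm were at or near 0 CPM. Low levels were also found for eater and Sr-CI, with group means of 0.594 to 2.31 and 0.972 to 2.65 CPM. Most of the sum came from Col4a1, vkg and Hml, with means of 909, 462 and 446 CPM in DMSO. At 25, 50 and 100 µmol/L, 3, 4 and 5 of the 8 fell, where 1.13%, 5.16% and 3.59% of all tested genes were called lower, and the part of this in the other results was not tested. The 9 markers of neurons, muscle, fat body, germline and glia summed to at most 6.09 CPM in any library, with the highest single value at 2.68 CPM. Long transcripts stood higher in DMSO libraries: with each gene centred on its own mean, log2 CPM had a slope on log2 exonic length between -0.222 and 0.0285 in the TMPyP4 libraries, against 0.264, 0.0545 and 0.154 in DMSO replicates 1 to 3. DMSO replicate 1 and 50 µmol/L replicate 2 were the extremes of that slope, and calls lost without them are named beside the result. In bulk RNA, fewer cells that express a gene and less of its RNA per cell cannot be told apart.

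Tgi (FBgn0036373, chromosome 3L, 13486797 to 13502492, plus strand, dm6 coordinates) had a lower mean at each higher concentration. Its 3 DMSO libraries had 106, 87.3 and 82.75 CPM and its 25 µmol/L libraries 72.4, 78.2 and 80.8 CPM. The 50 µmol/L libraries had 76.2, 56.5 and 50.9 CPM. The 100 µmol/L libraries had 49.8, 47.9 and 58.4 CPM. Every TMPyP4 library lay below every DMSO library. Tgi was chosen by its fall in these libraries, so this separation carries no test. At 25, 50 and 100 µmol/L taken singly, all treated libraries lay below DMSO for 8.62%, 13.0% and 13.4% of all tested genes. The share for the concentrations together was not counted. For Tgi, 50 µmol/L replicate 1 fell within the range of the 25 µmol/L libraries and 50 µmol/L replicates 2 and 3 within that of the 100 µmol/L libraries. The group means were 92.1 ± 12.5, 77.1 ± 4.31, 61.2 ± 13.3 and 52.0 ± 5.61 CPM (SD, n = 3 each) in DMSO and at 25, 50 and 100 µmol/L. As a share of the DMSO mean, Tgi stood at 83.8%, 66.4% and 56.5% at the 3 concentrations.

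Log2 fold changes of Tgi against DMSO were -0.26 (SE 0.141), -0.59 (SE 0.145) and -0.82 (SE 0.144) at 25, 50 and 100 µmol/L, and its fitted slope was -0.82 (SE 0.141) per 100 µmol/L. These values chose Tgi, and the 3 comparisons share their DMSO libraries, so the steps between them carry no test. For the rank of Tgi, 5.51% of the 7328 tested genes had a lower fold change at 100 µmol/L. Under the alternatives tried, including each library left out in turn, the value at 100 µmol/L ran from -0.92 to -0.70.

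The partner gene of Tgi in the nucleus gives a scale that needs no library normalisation. Per 100 counts of yki, Tgi had 55.7, 49.0 and 44.1 counts in DMSO replicates 1 to 3. The 25 µmol/L libraries had 40.4, 39.2 and 38.5. The ratio was 38.1, 30.7 and 30.5 in the 50 µmol/L libraries. It was 25.2, 24.9 and 29.6 in the 100 µmol/L libraries. On the ratio to yki no library of a group overlapped the libraries of another group. The ratio restates the values by which Tgi was chosen, so this order carries no test. The share of genes whose ratio would separate in this way was not counted. The mean ratio was 49.6 ± 5.83, 39.4 ± 0.969, 33.1 ± 4.32 and 26.5 ± 2.63 counts of Tgi per 100 of yki (SD, n = 3 each) in DMSO and at 25, 50 and 100 µmol/L. The same ratio to hpo had means of 144 ± 15.4, 109 ± 4.43, 96.6 ± 19.6 and 77.9 ± 7.75 counts of Tgi per 100 of hpo, and that to mats 166 ± 26.0, 127 ± 5.66, 110 ± 10.96 and 83.8 ± 13.1 counts of Tgi per 100 of mats. On these too DMSO lay above all treated libraries, but the 50 µmol/L libraries overlapped those at 25 µmol/L on both ratios and those at 100 µmol/L on the ratio to hpo.

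**Figure D1:**
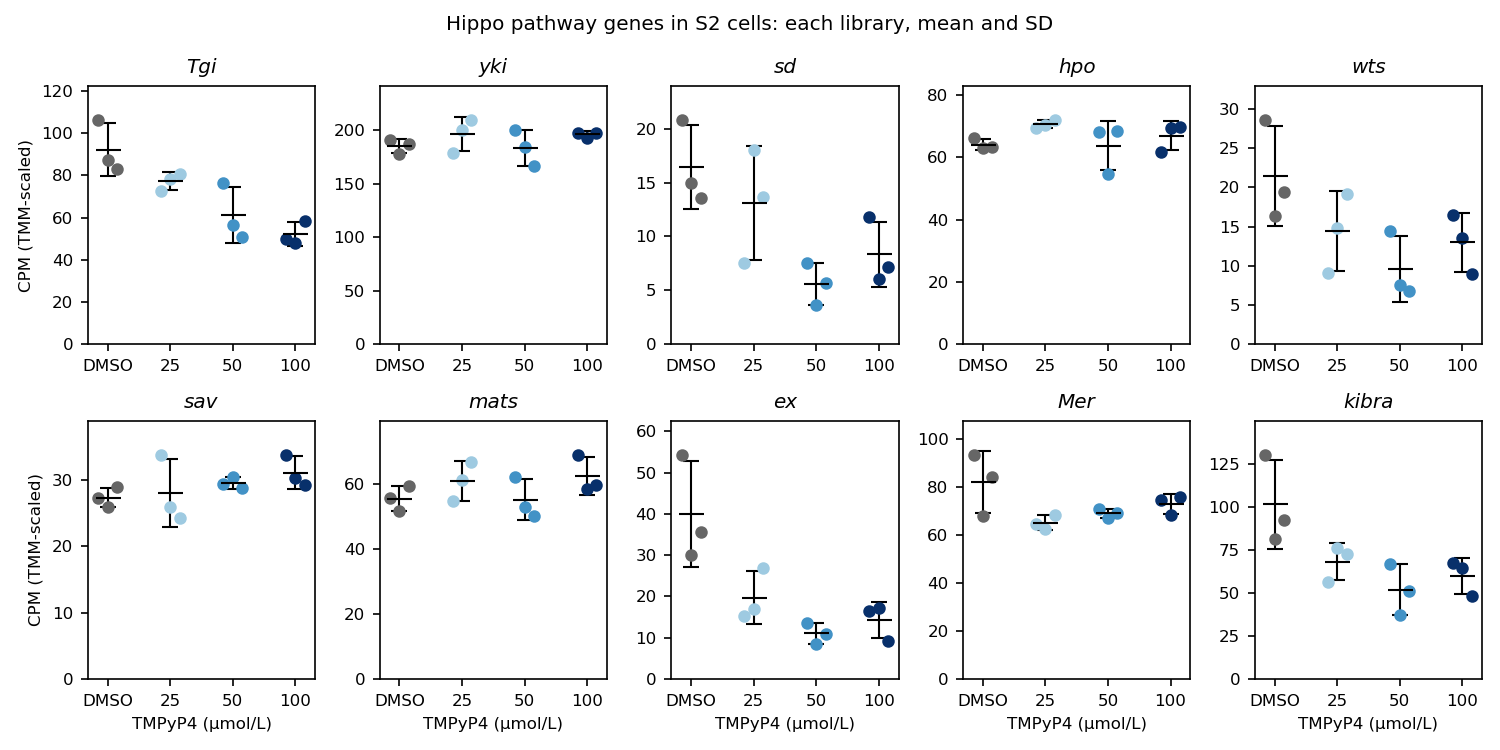
Each panel plots 1 gene in TMM-scaled CPM (vertical axis, from 0) for the DMSO, 25, 50 and 100 µmol/L libraries, with points for libraries and a bar and whiskers for the mean and SD of 3. Tgi has a lower mean at each step, with 52.0 CPM at 100 µmol/L, against 92.1 CPM in DMSO, and yki, hpo, sav and mats stay close to their DMSO means.

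Among the 9 other genes, those that fell with TMPyP4 were ex, kibra, sd and wts at 50 µmol/L, and ex and kibra at 100 µmol/L; no gene of the 9 rose in any comparison with DMSO. At 50 µmol/L 4 of 9 were past the threshold (edgeR quasi-likelihood test, Benjamini-Hochberg adjusted p under 0.05 over all genes), all lower, where 6.85% of all tested genes were called, 5.16% lower and 1.69% higher. At 100 µmol/L 2 of 9 were, both lower, where 5.17% of all genes were called, 3.59% lower and 1.58% higher. At 25 µmol/L 0 of 9 passed, where 1.66% of all genes were called, 1.13% lower and 0.532% higher; there ex, Mer and kibra had an unadjusted p under 0.05, and DESeq2 called 1 gene, ex. The median log2 fold change of the 9 was -0.33, -0.25 and -0.17 at 25, 50 and 100 µmol/L, beside 0.013, 0.021 and 0.015 over all tested genes. All 3 treated libraries lay below all DMSO libraries for 2, 4 and 3 of the 9 at the 3 concentrations, where this held for 8.62%, 13.0% and 13.4% of all genes. They lay above for 1, 0 and 2 of the 9, where 10.8%, 12.8% and 13.7% of all genes did.

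The gene of the 9 with the lowest fold changes was ex (FBgn0004583, 2L, 431227 to 448701), which encodes the FERM-domain scaffold Expanded. At 50 µmol/L it had 13.7, 8.53 and 10.98 CPM, against 54.4, 30.1 and 35.5 CPM in DMSO. The 100 µmol/L libraries had 16.6, 17.2 and 9.20 CPM and the 25 µmol/L libraries 15.2, 16.9 and 27.0 CPM. All 9 TMPyP4 libraries were below the lowest DMSO library. The share of all genes, or of long genes, for which this held was not counted. The log2 fold change was -1.84 (SE 0.292, edgeR adjusted p 0.00432) at 50 µmol/L, or 3.57-fold lower. The 100 µmol/L libraries gave -1.50 (SE 0.28, edgeR adjusted p 0.00636). At 25 µmol/L ex had -1.02 (SE 0.27, edgeR adjusted p 0.0718), which missed the threshold. Both calls held without each of the 12 libraries in turn, at -2.02 to -1.55 for 50 µmol/L and -1.68 to -1.22 for 100 µmol/L, and the call at 50 µmol/L was lost without DMSO replicate 1 and 50 µmol/L replicate 2 together (-1.41, edgeR adjusted p 0.0946). With the run of numbers in the sample titles as a block, both calls of ex were lost, at -1.75 (edgeR adjusted p 0.0508) for 50 µmol/L and -1.13 (edgeR adjusted p 0.493) for 100 µmol/L. That block left 12, 0 and 1 of all 7328 tested genes called at 25, 50 and 100 µmol/L. The run of titles from 150 to 174 holds no DMSO library. The 25 µmol/L libraries all lie in runs that hold a DMSO library. Differences between runs of titles and between concentrations cannot be fully told apart here. The part of each in the calls lost with the block, here or below, was not tested. Exons of ex share 448 bases with those of crq on the other strand, and whether reads were counted by strand is not given; crq itself had 86.8 ± 8.39 CPM in DMSO and no called change.

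Its partner in the cortical complex, kibra (FBgn0262127, 3R, 14697689 to 14724261), a WW-domain scaffold, fell by less. In the 50 µmol/L libraries kibra had 66.9, 37.3 and 51.0 CPM, against 130, 81.1 and 92.5 CPM in DMSO. The values were 56.2, 76.1 and 72.4 CPM in the 25 µmol/L libraries, and 67.2, 64.7 and 48.2 CPM in the 100 µmol/L libraries. Here too each TMPyP4 library was below each DMSO library, a separation whose share over all genes or long genes was not counted. The log2 fold change of kibra was -0.96 (SE 0.205, edgeR adjusted p 0.0161) at 50 µmol/L. It was -0.76 (SE 0.201, edgeR adjusted p 0.0371) in the 100 µmol/L libraries. At 25 µmol/L it was -0.57 (SE 0.199, edgeR adjusted p 0.162). The call at 50 µmol/L was lost without DMSO replicate 1, 50 µmol/L replicate 2 or 50 µmol/L replicate 3. Both calls of kibra were lost with the title number block, at -0.85 (edgeR adjusted p 0.135) and -0.43 (edgeR adjusted p 0.788), and without both libraries of extreme slope, at -0.56 (edgeR adjusted p 0.269) and -0.54 (edgeR adjusted p 0.0925). That at 100 µmol/L held in 5 of 12 when a library was left out and was lost in the other 7, among them those without DMSO replicate 1 or 3 and without each of the 3 libraries at 100 µmol/L (range -0.91 to -0.54 over the 12).

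Merlin, the third scaffold (Mer, FBgn0086384, X, 19689697 to 19693500), passed no test. Mer had 64.5, 62.6 and 68.5 CPM at 25 µmol/L, against 93.6, 68.2 and 84.3 CPM in DMSO, and the 25 µmol/L library with 68.5 CPM overlapped DMSO replicate 2. Its log2 fold changes were -0.33 (95% interval -0.57 to -0.091), -0.25 (-0.49 to -0.0041) and -0.17 (-0.41 to 0.074) at 25, 50 and 100 µmol/L, with edgeR adjusted p of 0.157, 0.183 and 0.433. Without DMSO replicate 2, the lowest of its group, Mer passed at 25 µmol/L (edgeR adjusted p 0.0353) and 50 µmol/L (0.0419).

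Scalloped, the DNA-binding partner of both Yorkie and Tgi, was the least abundant of the 10 per length and fell at 50 µmol/L. There sd (FBgn0003345, X, 15804370 to 15827682) had 7.56, 3.65 and 5.67 CPM, against 20.8, 14.9 and 13.5 CPM in DMSO. The counts behind these were 47, 15 and 31 at 50 µmol/L and 190, 114 and 129 in DMSO. The log2 fold change was -1.51 (SE 0.348, edgeR adjusted p 0.020), and the call was lost without DMSO replicate 1, 50 µmol/L replicate 2 or 50 µmol/L replicate 3. It was also lost with the title number block (-1.54, edgeR adjusted p 0.141) and without both libraries of extreme slope (-1.10, edgeR adjusted p 0.284). At 100 µmol/L sd had 11.8, 6.07 and 7.14 CPM, all below DMSO, and -0.96 (SE 0.327, edgeR adjusted p 0.0951). The 25 µmol/L libraries spread from 7.54 to 18.0 CPM, overlapping the DMSO libraries, and the fitted difference was -0.33 on the log2 scale (SE 0.315, edgeR adjusted p 0.674), which turned to 0.022 and 0.11 with the linear and the curved length offset.

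Yorkie itself gave close values in all groups. For yki (FBgn0034970, 2R, 24065975 to 24068485) the 12 libraries ran from 166 to 210 CPM, with means of 185 ± 6.57, 196 ± 15.6, 184 ± 16.8 and 196 ± 2.83 CPM (SD, n = 3 each) in DMSO and at 25, 50 and 100 µmol/L. The 3 libraries at 100 µmol/L, at 193 to 198 CPM, were just above the highest DMSO library at 191 CPM. Log2 fold changes were 0.082, -0.014 and 0.080 at 25, 50 and 100 µmol/L, and their 95% intervals together ran from -0.22 to 0.28, and differences within that range are not left out by the data.

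In the kinase cassette, wts fell at 50 µmol/L and the other 3 genes passed no test. The Warts gene wts (FBgn0011739, 3R, 30789625 to 30806619) had 14.5, 7.55 and 6.77 CPM at 50 µmol/L, against 28.6, 16.4 and 19.4 CPM in DMSO, with no overlap. Its log2 fold change was -1.14 (SE 0.333, edgeR adjusted p 0.0489), close to the threshold, and 8 of the 12 fits that left out a library lost the call, those without DMSO replicate 1 or 3, 50 µmol/L replicate 2 or 3, 25 µmol/L replicate 2 or 3 or 100 µmol/L replicate 1 or 2. Blocking by title number (-1.19, edgeR adjusted p 0.202) and leaving out both libraries of extreme slope (-0.75, edgeR adjusted p 0.489) ended it too. At 25 and 100 µmol/L the libraries of wts overlapped DMSO, with values of -0.58 (SE 0.314, edgeR adjusted p 0.405) and -0.73 (SE 0.319, edgeR adjusted p 0.192).

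The Hippo kinase gene hpo (FBgn0261456, 2R, 19493996 to 19496856) had means of 64.0 ± 1.82, 70.6 ± 1.29, 63.7 ± 7.87 and 66.9 ± 4.62 CPM (SD, n = 3 each) in DMSO and at 25, 50 and 100 µmol/L. Its scaffold gene sav (FBgn0053193, 3R, 23058609 to 23061304) had 27.4 ± 1.49, 28.0 ± 5.07, 29.5 ± 0.872 and 31.1 ± 2.41 CPM in the same order. For mats (FBgn0038965, 3R, 22421161 to 22423302), the cofactor of Warts, they were 55.6 ± 3.88, 61.1 ± 6.05, 55.3 ± 6.33 and 62.5 ± 5.83 CPM. The hpo libraries at 25 µmol/L and the sav libraries at 100 µmol/L lay above those of DMSO by small margins. Across the 3 genes and 3 concentrations the log2 fold changes ran from -0.0069 to 0.19, with the highest upper end of a 95% interval at 0.49, for sav at 100 µmol/L, and differences within these intervals are not left out by the data. Exons of hpo share 130 bases with Rep on the other strand, and exons of sav share 73 bases with Ctns on its own strand.

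**Figure D2:**
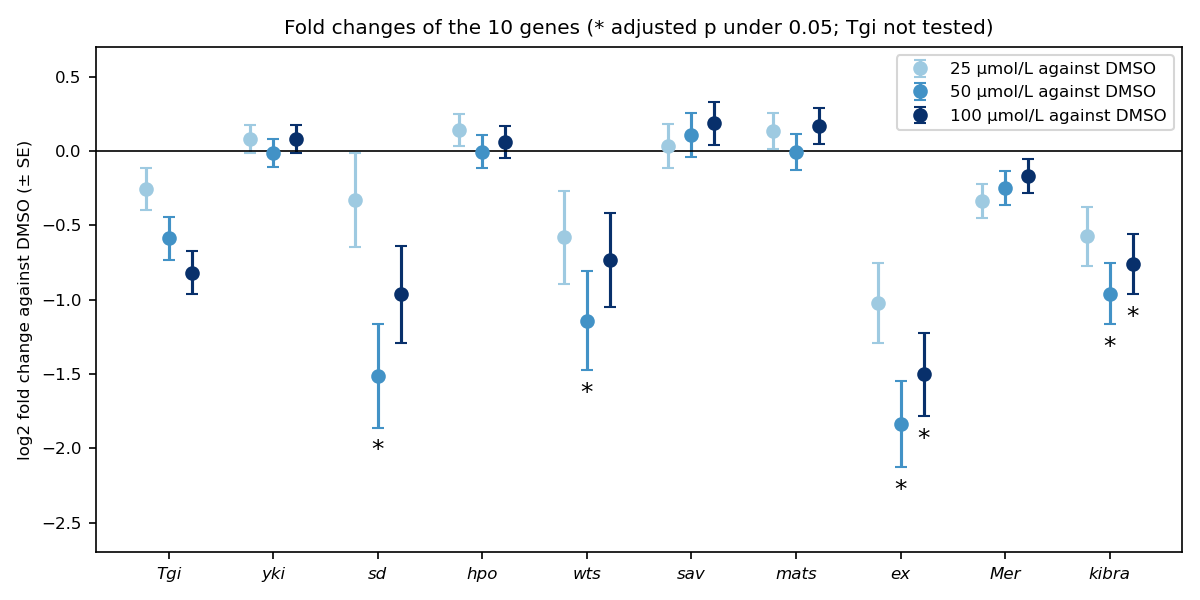
Log2 fold changes against DMSO (vertical axis, points with SE) at 25, 50 and 100 µmol/L for the 10 genes, with a star where the adjusted p was under 0.05 (Tgi not tested). Values of ex, kibra, sd and wts at 50 µmol/L are -1.84, -0.96, -1.51 and -1.14, that of Tgi at 100 µmol/L is -0.82, and yki, hpo, sav and mats lie near 0.

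A direct comparison of 100 with 50 µmol/L called 0 of the 9 genes, where 0.0409% of all genes were called, and 0 had an unadjusted p under 0.05 (DESeq2 called 0). The 9 log2 differences there ran from 0.067 to 0.55. Between 50 and 25 µmol/L 0 of 9 were called, where 0.300% of all genes were (DESeq2 called 0), and sd (-1.18, SE 0.352) and ex (-0.81, SE 0.297) had an unadjusted p under 0.05. Between 100 and 25 µmol/L 0 of 9 were called, where 0.205% of all genes were, with 0 at an unadjusted p under 0.05 and 0 by DESeq2. The slope on concentration passed for 0 of the 9, where 0.628% of all genes were called, with sd, ex and kibra at an unadjusted p under 0.05 and 0 called by DESeq2. The lowest was ex, at -1.46 per 100 µmol/L (SE 0.368, edgeR adjusted p 0.0678).

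The 10 genes differ in transcript length, which the choice of genes did not use, and the 4 that fell at 50 µmol/L are the 4 longest. Exonic length is 8766 bases for sd, 6672 for ex, 5803 for wts and 5750 for kibra, then 3400 for Mer, 2804 for hpo, 2424 for Tgi, 2235 for sav, 1716 for mats and 1525 for yki. The median over 7263 tested genes with a length is 2084 bases. Split by length into 5 classes of about equal size, the longest class, from 4055 bases up, holds sd, ex, wts and kibra and none of the other 6. In that class the median log2 fold change was -0.27, -0.49 and -0.37 at 25, 50 and 100 µmol/L, and 4.76%, 21.8% and 14.2% of its 1451 genes were called lower. In the middle class, from 1745 to 2487 bases, which holds Tgi and sav, the medians were 0.023, 0.057 and 0.046, and 0.551%, 0.482% and 0.895% of genes were called lower.

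The libraries of highest and lowest length slope were also at the ends for the long genes. DMSO replicate 1 had the highest level of sd, ex, wts and kibra among the 12 libraries, and 50 µmol/L replicate 2 the lowest of sd, ex and kibra, while for wts the lowest was 50 µmol/L replicate 3. Tgi too was highest in DMSO replicate 1, and its lowest library was 100 µmol/L replicate 2. With a linear offset for exonic length in each library, 1 of the 9 genes was called at 50 and at 100 µmol/L, ex in both, at -1.41 (SE 0.239, edgeR adjusted p 0.0098) and -1.16 (SE 0.227, edgeR adjusted p 0.00998). With a curved offset, chosen after seeing the data, ex was again the 1 gene called at both, at -1.29 and -1.08 (edgeR adjusted p 0.0194 and 0.0120). With the linear offset kibra had -0.59 (edgeR adjusted p 0.0532) at 50 µmol/L and -0.47 (edgeR adjusted p 0.0717) at 100 µmol/L. In the 50 µmol/L comparison sd had -1.01 (edgeR adjusted p 0.0902) and wts -0.78 (edgeR adjusted p 0.164). For Tgi the linear offset gave -0.23, -0.54 and -0.78 at 25, 50 and 100 µmol/L, beside -0.26, -0.59 and -0.82 without it. The linear offset grows with the distance of a gene's log2 length from the mean. At 2424 bases, near the median of 2084, it could change Tgi only little, whatever the cause. Across the 12 libraries log2 CPM of Tgi had a Pearson r of 0.728 with the slope on length, a description. The part of the slope on length in these results, beyond the offsets, was not tested.

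**Figure D3:**
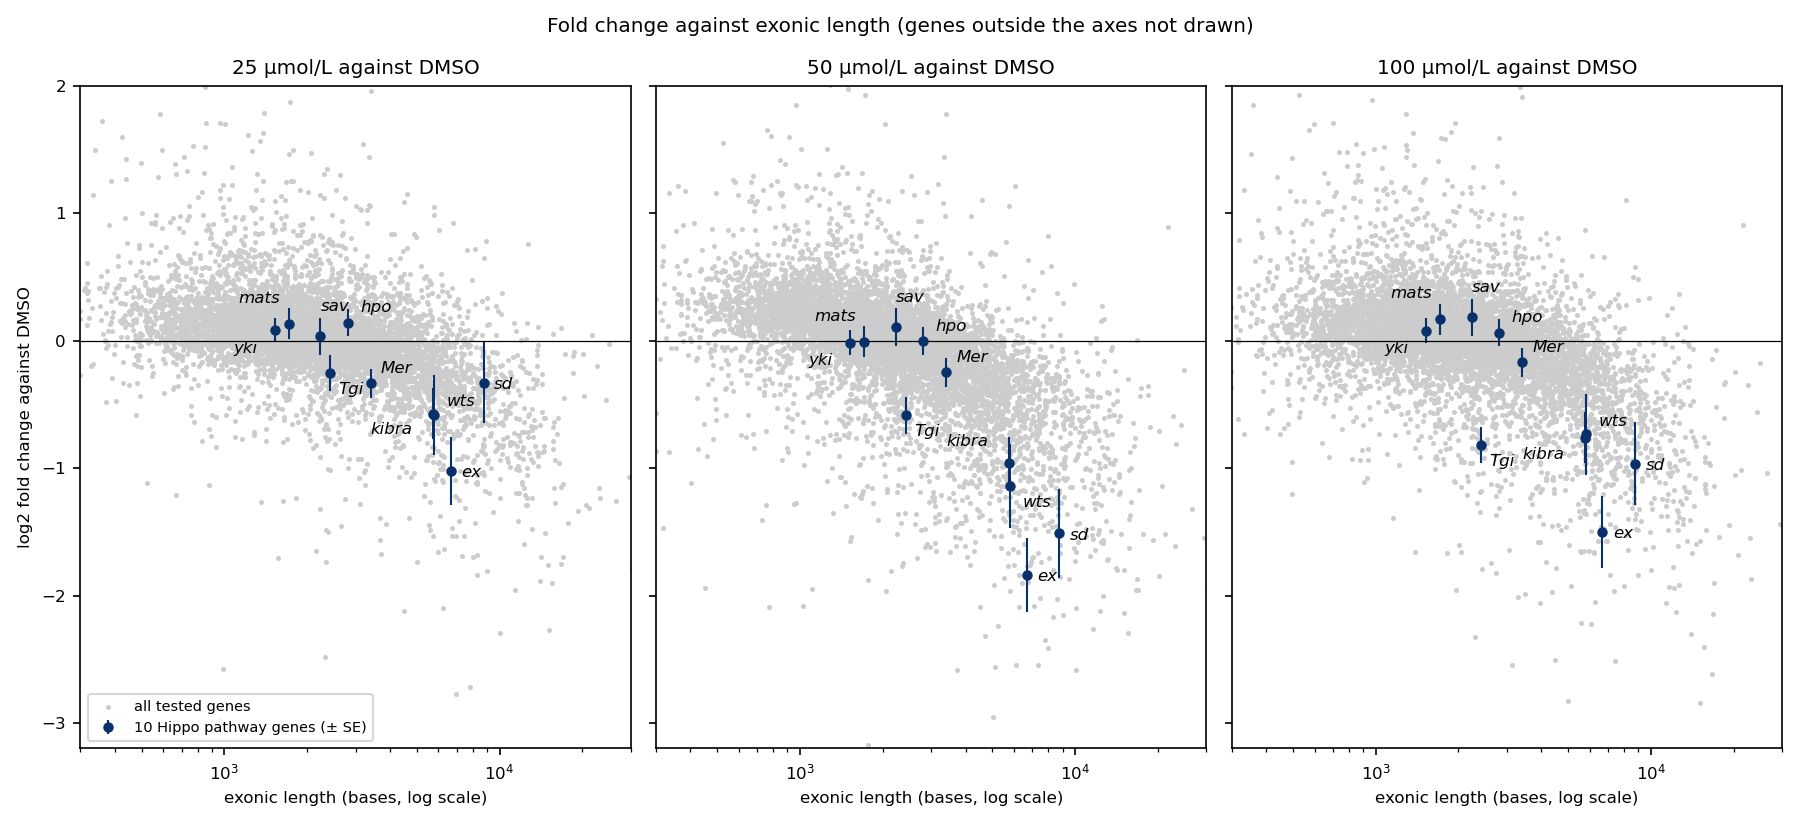
Log2 fold change against DMSO (vertical axis) plotted on exonic length in bases (log axis) for all tested genes in grey and the 10 Hippo pathway genes in blue with SE, with a panel each for 25, 50 and 100 µmol/L. The cloud bends down at long lengths, where sd, ex, wts and kibra lie. Tgi, with 2424 bases, lies below the bulk of genes of its length at 50 and 100 µmol/L. It was chosen by its fall in these libraries, so this place carries no test.

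Levels were compared between genes per kilobase of exon. In DMSO yki was highest, at 122 ± 4.31 CPM per kilobase (SD, n = 3), and no other gene overlapped it. Tgi came next at 38.0 ± 5.16 CPM per kilobase and overlapped mats at 32.4 ± 2.26. Below them Mer had 24.1 ± 3.79, hpo 22.8 ± 0.649 and kibra 17.6 ± 4.48 CPM per kilobase, with each overlapping the next. Then sav had 12.2 ± 0.666, ex 5.99 ± 1.91, wts 3.70 ± 1.10 and sd 1.87 ± 0.441 CPM per kilobase, and of these neighbours ex and wts overlapped. At 100 µmol/L Tgi stood behind yki, mats and hpo, at 21.5 ± 2.31 CPM per kilobase, where mats had 36.4 ± 3.40 and hpo 23.9 ± 1.65, and it overlapped hpo and Mer. Through all 4 groups yki was the highest and sd the lowest.

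The genes whose log2 CPM followed Tgi most closely over the 12 libraries, out of 6899 with a mean log2 CPM of at least 1, were CG3726, stwl, Cht10, CG11961 and LManII. Their Pearson r with Tgi was 0.932, 0.923, 0.914, 0.913 and 0.911, a description over libraries that share groups, depth and the slope on length. Each had its highest mean in DMSO and its lowest at 100 µmol/L. Picking genes by their likeness to Tgi largely set this order, so it carries no test. CG3726 had 49.5 ± 3.60, 34.2 ± 3.70, 28.9 ± 8.99 and 24.0 ± 1.95 CPM (SD, n = 3 each) in DMSO and at 25, 50 and 100 µmol/L. Exonic lengths of the 5 ran from 3152 to 7373 bases, all longer than Tgi. Of the Hippo genes, ex, kibra, sd and wts had r of 0.754, 0.736, 0.736 and 0.672 with Tgi, and yki 0.168. With the slope of each library on length, the 5 genes most like Tgi had r of 0.839, 0.837, 0.788, 0.741 and 0.751. On that slope Tgi had r of 0.728, and ex, kibra, sd and wts 0.920, 0.974, 0.837 and 0.890. The remaining Hippo genes ran from -0.253 for sav to 0.701 for Mer. The genes of most opposite pattern were CG18528 (r -0.940), which had means of 65.2, 69.3, 80.4 and 80.2 CPM in the same order, and CysRS, the cysteinyl-tRNA synthetase (r -0.922), with 128, 133, 155 and 167 CPM.

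Other genes of the pathway were read from 3 lists with 68 names in all. The list of upstream regulators, which act on the kinases from junctions, the cytoskeleton or the STRIPAK phosphatase complex, had 38 names, of which 32 were tested. At 50 µmol/L 5 of the 32 fell (dlg1, kst, crb, par-1 and pyd) and 1 rose (Fgop2), and at 100 µmol/L 4 fell (dlg1, kst, Tao and pyd) and 1 rose (Fgop2), while kst alone passed at 25 µmol/L, lower. Of all genes, 1.69% and 1.58% were called higher at 50 and 100 µmol/L. At 25 µmol/L kst made up 3.1% of the list, beside 1.13% of all genes and 4.76% of the longest class called lower. The share of the list called lower was 15.6% at 50 µmol/L and 12.5% at 100 µmol/L, beside 5.16% and 3.59% of all genes and 21.8% and 14.2% of the longest class, which holds the genes that fell. Of these, par-1 is named to complete the count, after its values were seen. The spectrin gene kst had 180 ± 17.5 CPM at 100 µmol/L, against 379 ± 89.4 CPM in DMSO (SD, n = 3 each), with log2 fold changes of -0.87, -1.05 and -1.08 at the 3 concentrations (edgeR adjusted p 0.0260, 0.0062 and 0.00422). All 3 calls of kst were lost with either length offset and with the title number block. The call at 25 µmol/L was lost without any 1 of DMSO replicates 1 and 3 and 25 µmol/L replicates 2 and 3, and that at 50 µmol/L without both libraries of extreme slope. Fgop2, a STRIPAK subunit, had 33.9 ± 1.21 CPM at 100 µmol/L, against 21.4 ± 3.27 CPM in DMSO, or 0.66 on the log2 scale (SE 0.155, edgeR adjusted p 0.0217). That call was lost with the title number block and without any 1 of DMSO replicates 2 and 3 and 100 µmol/L replicates 2 and 3. The call of Fgop2 at 50 µmol/L was kept in 2 of 12 fits with a library left out, those without replicate 1 at 25 or at 50 µmol/L. It was also lost with the title number block, with either length offset and without both libraries of extreme slope. Tao, the kinase that activates Hippo, had -0.77 (SE 0.176, edgeR adjusted p 0.0197) at 100 µmol/L, a call lost with either length offset, with the title number block, without both libraries of extreme slope, and without DMSO replicate 1 or 100 µmol/L replicate 2 or 3. Without DMSO replicate 1 the calls of dlg1 and pyd at both concentrations and of crb and par-1 at 50 µmol/L were lost as well. Leaving out replicate 2 or replicate 3 at 50 µmol/L also ended these 4 at 50 µmol/L, and leaving out replicate 2 or replicate 3 at 100 µmol/L ended dlg1 and pyd at 100 µmol/L. With a library left out, par-1 was kept in 4 of 12 fits and pyd in 6 of 12 at 50 µmol/L. The 4 calls at 50 µmol/L and that of pyd at 100 µmol/L were also lost with the title number block and either length offset. They were lost without both libraries of extreme slope too. At 100 µmol/L dlg1 was lost with the block and the curved offset. The median of the list was -0.28, -0.45 and -0.29 at 25, 50 and 100 µmol/L. The tested genes of this list had a median exonic length of 5579 bases, and those that fell had 7414 bases or more.

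Partners of Yorkie and Scalloped made up the second list, with 14 names, of which 12 were tested. Ncoa6, Hipk, mask and nej were lower at each of the 3 concentrations and none of the 12 rose. These 4 of 12, or 33.3%, stand beside 4.76%, 21.8% and 14.2% of the longest class called lower at 25, 50 and 100 µmol/L, and 1.13%, 5.16% and 3.59% of all genes. Leaving out DMSO replicate 1 or 25 µmol/L replicate 2 removed all 4 calls at 25 µmol/L. Without DMSO replicate 1, or replicate 2 or 3 at 50 µmol/L, Ncoa6 and nej were lost at 50 µmol/L. At 100 µmol/L Ncoa6 was lost in 7 of 12 fits with a library left out, among them those without DMSO replicate 1 and without each library at 100 µmol/L. Without both libraries of extreme slope, mask was kept at 25 µmol/L, none at 50 µmol/L, and Hipk, mask and nej at 100 µmol/L, and with the title number block mask alone was kept, at 25 µmol/L. Ncoa6, a coactivator subunit that binds Yorkie, had counts of 13, 14 and 14 in the 25 µmol/L libraries, against 120, 52 and 53 in DMSO. The 50 µmol/L libraries held 16, 1 and 6 counts and the 100 µmol/L libraries 20, 5 and 31. The mean of mask, a Yorkie cofactor with ankyrin repeats, was 30.9 ± 6.92, 30.4 ± 12.6 and 29.1 ± 5.14 CPM at the 3 concentrations, against 88.0 ± 28.9 CPM in DMSO (SD, n = 3 each). Its log2 fold changes were -1.51 (SE 0.265), -1.51 (SE 0.271) and -1.60 (SE 0.269), with edgeR adjusted p of 0.0118, 0.00705 and 0.00422. The 4 genes have exonic lengths of 10041 to 15932 bases. With the linear length offset, mask was called at each concentration, Hipk and nej at 100 µmol/L and Ncoa6 at none, and with the curved offset mask was called at 25 and 100 µmol/L and the other 3 at none.

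The third list held 16 known targets of Yorkie, of which 9 were tested, with a median log2 fold change of -0.14, -0.55 and -0.38 at 25, 50 and 100 µmol/L. At 25 µmol/L 0 of 9 passed in edgeR and 0 in DESeq2, with 2 at an unadjusted p under 0.05, E2f1 and InR. At 50 µmol/L 0 of 9 passed in edgeR and 1 in DESeq2, dally, with 3 at an unadjusted p under 0.05, E2f1, InR and dally; E2f1 and dally are named after their values were seen. At 100 µmol/L 1 fell, InR, the insulin receptor gene, at -2.06 (SE 0.558, edgeR adjusted p 0.0416), where 3.59% of all genes and 14.2% of the longest class were called lower. The call was lost in 6 of 12 fits with a library left out, those without DMSO replicates 1 and 3, 25 µmol/L replicate 3, 50 µmol/L replicate 3 and 100 µmol/L replicates 2 and 3. It was also lost with either length offset, without the count filter, with the title number block and without both libraries of extreme slope. Its level was 0.557 ± 0.431 CPM at 100 µmol/L, against 2.48 ± 0.556 CPM in DMSO (SD, n = 3 each). Diap1, the caspase inhibitor gene used as a standard Yorkie readout, had 473 ± 8.57, 457 ± 60.7 and 496 ± 15.2 CPM at 25, 50 and 100 µmol/L, against 429 ± 22.7 CPM in DMSO. Its log2 fold changes were 0.14, 0.091 and 0.21 (edgeR adjusted p 0.559, 0.594 and 0.248). The Diap1 libraries at 25 and 100 µmol/L lay above all DMSO libraries, where this held for 10.8% and 13.7% of all genes. Myc did not pass the count filter. The DMSO libraries held 38, 6 and 8 counts of it and the 25 µmol/L libraries 0, 11 and 3. The 50 µmol/L libraries held 2, 2 and 5, and the 100 µmol/L libraries 1, 1 and 0. The microRNA gene mir-ban was not analysed here. The slope on concentration passed for 0 genes of the 3 lists in edgeR, with 9, 5 and 3 genes of the upstream, partner and target lists at an unadjusted p under 0.05, and for 5 in DESeq2.

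**Figure D4:**
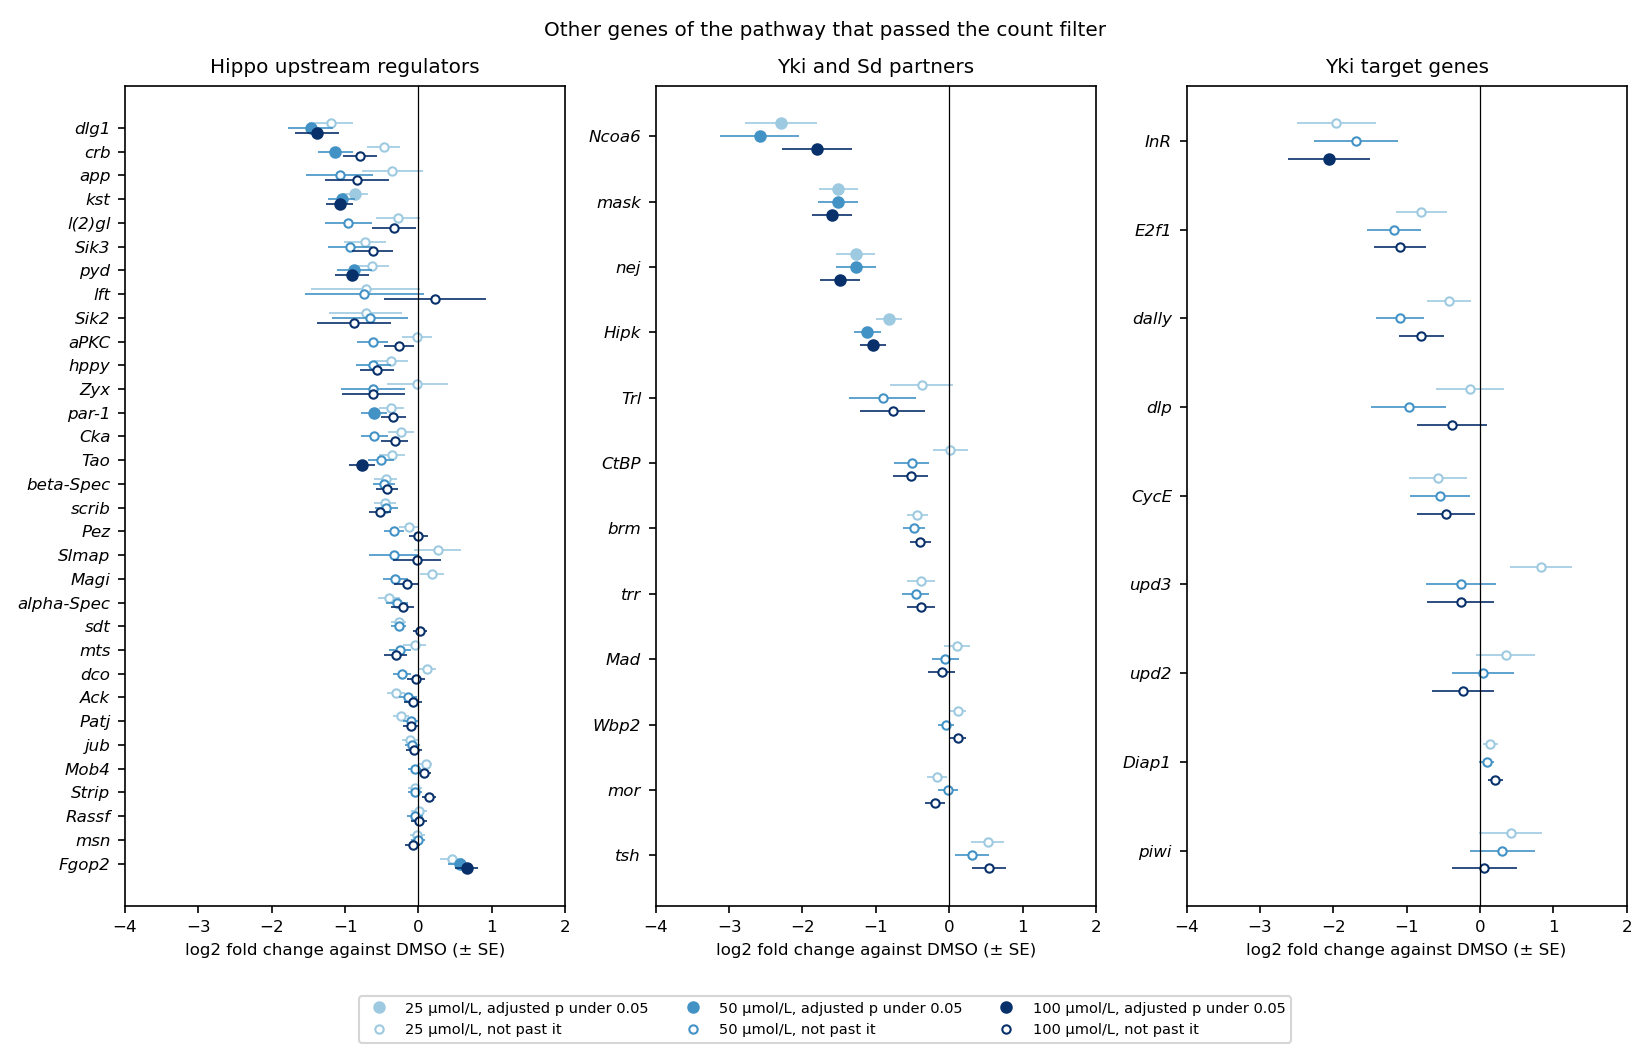
Log2 fold changes against DMSO (horizontal axis, points with SE) at 25, 50 and 100 µmol/L for the tested genes of the 3 lists, filled where the adjusted p was under 0.05. The filled points lie left of 0 except for Fgop2, and Ncoa6, mask, nej and Hipk have a filled point at each concentration.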

How the data were processed

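The authors deposited raw read counts for each gene in each of the 12 libraries. Per the submitters' processing notes, HISAT2 2.0.5, SAMtools 1.7, HTSeq 0.9.1, FastQC 0.11.8, MultiQC 0.9 and the build dm6 were used; the annotation and strand setting are not given in the sources used here. Per the labels, libraries were stranded (dUTP). Reads outside genes (0.783 to 1.04% with no feature, 1.87 to 2.71% ambiguous) were left out of library sizes and tests. Of 17494 identifiers, 17358 matched BDGP6.54 (dm6 coordinates), which gave names, positions and exonic lengths and may differ from the authors' annotation.

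Counts were filtered with filterByExpr (minimum count 10, minimum total 15), scaled by TMM and tested with edgeR 4.0.16 (glmQLFit, glmQLFTest) in R 4.3.3, with the 4 groups fitted together over the 12 libraries. The trend came from a fit on concentration. P-values are two-sided and adjusted over 7328 genes. SE is the absolute fold change over the square root of F. A prior count of 2 entered log2 CPM. The steps were tested on simulated data. Tgi was also read per 100 counts of yki, hpo and mats. Alternatives were RLE factors, DESeq2 1.42.0, no filter, each library left out, blocks on replicate or title number, and length offsets. Genes were named by a rule: the 10 genes, up to 6 called genes per list by adjusted p, Ncoa6, Myc and Diap1, and the genes most and least like Tgi. The genes, lists and rule were chosen with earlier results of these data known. Planned motif searches in promoters and proteins were not run, and sequences were not used here. The symbols d and nos were read under the annotation's names, dachs and nanos.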

Additional observations from a re-analysis of the deposited data

How the results depend on the processing

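Of the 9 genes beside Tgi, 4 were called at 50 µmol/L and 2 at 100 µmol/L. Those counts became 0 and 0 with the title number as a block, 1 and 1 with the linear length offset, 1 and 1 with the curved one, and 0 and 1 without DMSO replicate 1 and 50 µmol/L replicate 2 together. Over all tested genes, 122, 502, 379 and 46 were called at 25, 50 and 100 µmol/L and in the trend. These became 12, 0, 1 and 0 with the block and 45, 7, 203 and 29 without the 2 libraries. They were 71, 90, 327 and 99 with the linear offset and 57, 84, 209 and 41 with the curved one. Without the count filter, 2 of the 9 genes were called at 25 µmol/L, 4 at 100 µmol/L, 1 in the trend and 2 between 50 and 25 µmol/L. DESeq2 called 1 of the 9 at 25 µmol/L. Over all tested genes, 464, 1058, 777 and 136 were called without the filter at 25, 50 and 100 µmol/L and in the trend. Between 50 and 25 µmol/L that fit called 207. DESeq2 called 234, 756, 543 and 239 at the 3 concentrations and in the trend. For the 9 genes, leaving out 1 library at a time gave 0 to 2 at 25 µmol/L, 1 to 5 at 50 µmol/L, 1 to 2 at 100 µmol/L, 0 to 1 in the trend and 0 to 0 between concentrations. The count at 50 µmol/L was 1 without DMSO replicate 1, 50 µmol/L replicate 2 or 50 µmol/L replicate 3. In these fits 65, 50 and 51 of all tested genes were called at 50 µmol/L.

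The 3 lists had 5, 10, 10 and 0 calls at 25, 50 and 100 µmol/L and in the trend. In that order they had 13, 22, 17 and 5 without the filter, 1, 1, 6 and 1 with the linear length offset and 1, 1, 5 and 1 with the curved one. At the 3 concentrations they had 1, 0 and 0 with the title number block, and 2, 0 and 6 without the 2 libraries of extreme slope. DESeq2 called 16 at 50 µmol/L and 5 in the trend. Leaving out 1 library gave 0 to 6, 3 to 23, 4 to 14 and 0 to 6. The lowest counts were, for 25 µmol/L, 0 without DMSO replicate 1 and without 25 µmol/L replicate 2, for 50 µmol/L, 3 without DMSO replicate 1 and without 50 µmol/L replicate 2 or 3, and for 100 µmol/L, 4 without 100 µmol/L replicate 2 or 3; the highest at 50 µmol/L (23) came without 50 µmol/L replicate 1. With the curved offset the called list genes were higher for scrib at 50 µmol/L and for Fgop2, par-1, scrib and sdt at 100 µmol/L, and lower for mask at 25 and 100 µmol/L. Calls over all tested genes changed between settings too, as given above, and were 1233 at 50 µmol/L without 50 µmol/L replicate 1. The offsets and the fits with fewer libraries test fewer genes or samples. Beyond that, the cause was not tested.

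Over 18 same-numbered pairs the correlation of deviations from the group means ran from -0.378 to 0.442 (median -0.0354), 6 of them over 0.1. Over 36 pairs of different number it ran from -0.383 to 0.362 (median 0.00945), 17 of them over 0.1. With 3 libraries per group these values show no sign of pairing by replicate number and cannot exclude it. The replicate block left the calls among the 9 genes at 0, 4, 2 and 0, and gave 1 call in the trend over the 3 lists. At 25, 50 and 100 µmol/L it gave 6, 15 and 14 calls in the lists. Over all tested genes it called 149, 635, 446 and 38 at the 3 concentrations and in the trend, against 122, 502, 379 and 46 without it.

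Values that passed no threshold changed sign, among them that of sd at 25 µmol/L, at -0.33 with no offset. With the linear and the curved length offset, yki had -0.0038 and -0.0086 at 25 µmol/L. It had -0.022 and -0.023 at 100 µmol/L and -0.037 and -0.036 in the trend. In the same order sd had 0.022 and 0.11 at 25 µmol/L and hpo 0.094 and 0.060 at 50 µmol/L. Mer had 0.030 in the trend with the linear offset and -0.0055 between 100 and 50 µmol/L with the curved one. With the title number block, sav had -0.036 at 25 µmol/L, hpo 0.053 at 50 µmol/L, and between 100 and 25 µmol/L hpo had 0.076, mats -0.0046 and kibra 0.12. Without the 2 libraries of extreme slope, yki had 0.0031, hpo 0.11 and mats 0.019 at 50 µmol/L, Mer 0.030 in the trend, hpo -0.030 between 100 and 50 µmol/L and yki 0.0061 between 100 and 25 µmol/L. That last value was 0.0054 with RLE factors, 0.0056 in DESeq2 and 0.0085 without the filter. With 1 library left out, sav ran from -0.12 to 0.13 at 25 µmol/L, and at 50 µmol/L yki ran from -0.081 to 0.053, hpo from -0.054 to 0.085 and mats from -0.11 to 0.060. In the trend hpo ran from -0.021 to 0.070 and Mer from -0.16 to 0.027. Between 50 and 25 µmol/L sav ran from -0.016 to 0.23, between 100 and 25 µmol/L yki from -0.062 to 0.050, wts from -0.40 to 0.11 and mats from -0.043 to 0.11, and between 100 and 50 µmol/L hpo from -0.030 to 0.12.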
